A study of Homo sapiens with 2 samples.

Results

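The genes examined here encode proteins of the mitochondrial ribosome (mitoribosome). They were taken as every array probe that named a single gene whose symbol begins with MRPL or MRPS and a digit, which gave 102 probes for 76 genes. The table holds 29187 probes, of which 25650 name a single gene, for 19414 genes in all. Of the 76 symbols, 48 are MRPL (large subunit) and 28 are MRPS (small subunit by name). One of them, MRPL42P5, is a pseudogene, and MRPS36 is now named KGD4 in RefSeq and belongs to the oxoglutarate dehydrogenase complex. RNA came from A375SM, a human melanoma cell line with high metastatic capacity, transduced with lentivirus carrying a short hairpin RNA (shRNA) and sorted for high GFP. One derivative carried an shRNA against NFAT1, the calcium-regulated transcription factor encoded by NFATC2 (labelled NFAT1-shRNA), and the other a non-targeting shRNA (labelled NT-shRNA). The comparison asks which transcripts differ between them. Both came from the same parent line, both carried a lentiviral vector and GFP, and each is a sorted pool of cells.

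The mitoribosome translates the few proteins encoded by mitochondrial DNA, all of them core subunits of oxidative phosphorylation. Its proteins are encoded in the nucleus, made in the cytosol and imported, and they assemble on ribosomal RNA transcribed inside the organelle. Many have a counterpart in the bacterial ribosome, and others exist only in mitochondria. Melanoma cells vary in how far they rely on oxidative phosphorylation.

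Expression was read by Cy5 microarray. According to the design text 3 biological replicates were run for each derivative. The table used here merges them into 1 normalized intensity per probe and line with an error attached, which leaves no spread between replicates to compute. The sources used here do not say whether that error is a standard deviation or a standard error. A probe is called detected in a line when the authors' detection p-value is under 0.01. Each gene is represented by its brightest probe over both lines, and a gene is called higher or lower when the authors' p-value for their log2 ratio (NFAT1-shRNA over NT-shRNA) is under 0.05 after Benjamini-Hochberg adjustment over all 9516 genes with a ratio. The file headers name no test for that p-value and do not say whether it rests on the spread between replicates. Intervals of 95% combine the authors' ratio with the error propagated from the 2 deposited errors. In each pair of readings the NFAT1-shRNA line comes first, and values quoted from the authors' deposited table without a unit are log2 ratios. Precision is limited by how few arrays were run.

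The targeted gene, NFATC2, showed no fall on this array. On its brighter probe the NFAT1-shRNA line read 279 (error 15.7) against 199 (error 15.2) for the NT-shRNA line, and the authors' deposited table lists a log2 ratio of 0.12 (adjusted p 0.819). The other NFATC2 probe, detected in neither line, stood at -0.23 (log2) in the authors' deposited table. Directions given here are therefore between the lines as labelled. Of 7 melanocyte lineage markers, 6 were detected in both lines, and the 7 summed to 2798 in NFAT1-shRNA cells against 1786 in NT-shRNA cells. These sums are of intensities before any centring, and the markers did not move together. In the authors' deposited table DCT (1.01) and TYR (1.63) were called higher. PMEL (0.13), SOX10 (0.010), MLANA (-0.29) and MITF (-0.50) were not called, and TYRP1 had no ratio. None of 3 endothelial markers was detected in either line. KRT14 of 3 keratinocyte markers (sums 186 and 182), LUM of 4 fibroblast markers (sums 8205 and 1597, the first mostly DCN at 6267 with an error of 7799) and CD68 of 3 leukocyte markers (sums 287 and 171) were detected in both. The part of other cells in the results was not tested. In bulk RNA fewer cells of a type and less RNA per cell cannot be told apart.

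The start regions of the 2 called genes, MRPS12 and MRPS18A, are shown first, with that of MRPS23, which had the highest ratio, and that of MRPL51, whose probe was the brightest. MRPL17 is added because, of the 67 members with a listed promoter, it alone held the full palindrome (GCGCA followed by TGCGC). That palindrome is bound by NRF1, a regulator of nuclear genes for mitochondrial proteins. Each run covers 120 bases before to 20 bases after the RefSeq gene start (GRCh38.p14), written 5′ to 3′ along the gene's strand. Capitals mark CCGGAAG, a core of sites for ETS factors such as GABPA, on either strand (CTTCCGG on the opposite one), and in MRPL17 they mark the NRF1 palindrome. The windows are chr19:38930824-38930963 (plus strand) for MRPS12, chr6:43687772-43687911 (minus strand) for MRPS18A, chr17:57850025-57850164 (minus strand) for MRPS23, chr12:6493243-6493382 (minus strand) for MRPL51 and chr11:6683321-6683460 (minus strand) for MRPL17.
MRPS12: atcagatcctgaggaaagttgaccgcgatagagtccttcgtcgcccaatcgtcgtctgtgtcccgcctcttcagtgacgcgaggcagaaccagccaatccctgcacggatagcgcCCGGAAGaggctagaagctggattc
MRPS18A: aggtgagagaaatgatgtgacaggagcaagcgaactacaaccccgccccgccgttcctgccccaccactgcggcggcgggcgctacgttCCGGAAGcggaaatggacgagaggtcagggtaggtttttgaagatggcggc
MRPS23: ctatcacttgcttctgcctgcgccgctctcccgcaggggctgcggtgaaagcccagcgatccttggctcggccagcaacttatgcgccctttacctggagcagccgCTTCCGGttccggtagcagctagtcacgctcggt
MRPL51: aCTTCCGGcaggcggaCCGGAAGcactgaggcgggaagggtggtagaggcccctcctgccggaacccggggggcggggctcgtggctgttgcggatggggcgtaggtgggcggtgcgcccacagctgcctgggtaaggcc
MRPL17: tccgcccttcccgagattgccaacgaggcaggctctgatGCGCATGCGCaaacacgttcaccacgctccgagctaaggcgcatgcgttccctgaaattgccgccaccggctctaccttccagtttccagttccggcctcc

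RefSeq's promoter table held 67 of the 76 genes, and windows from 250 bases before to 50 after the start were searched on both strands for 3 motifs, with a gene counted when any of its listed starts held a match. CCGGAAG was found for 29 members (43.3%), against 12.2% of all 27305 genes in that table and 22.04% of the 7731 genes in it with a ratio on this array. In 24 of those 29 a match lay between 60 bases before and 20 bases after the start, as in MRPS12, MRPS18A and MRPS23 above. The looser NRF1 motif, GCGCA and GCGC with any base between them, was found for 8 members (11.9%), against 6.98% of all genes and 13.4% of genes with a ratio. The full palindrome, a special case of it, was found for 1 member (1.49%), against 1.52% of all genes and 2.66% of genes with a ratio. The member shares are of all 67, with a ratio or not. Among members with a ratio, 7 held the looser NRF1 motif and 54 did not. Members with CCGGAAG and a ratio (28) had a median of 0.091 in the log2 ratios of the authors' deposited table, and those without it (33) had 0.046. A match is a description of letters and not of a bound site.

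Most transcripts of the mitoribosome were detected in both lines, and few were called different. Of the 76 genes, each read by its brightest probe, 58 were detected in both lines, 5 in the NFAT1-shRNA line only, 3 in the NT-shRNA line only and 10 in neither. The share detected in both lines was 76.3%, against 35.3% of all genes. The authors gave a ratio for 70 of the 76. Of these 70 genes, 2 (MRPS12 and MRPS18A) fell in NFAT1-shRNA cells and none rose. That is 2.86% called, where 7.55% of all genes with a ratio were called, 3.35% higher and 4.19% lower. Among genes detected in both lines, 2 of 58 members (3.45%) were called, both lower, against 9.5% of all such genes, 4.01% higher and 5.49% lower. By unadjusted p in the authors' deposited table (under 0.05) there were 9 members (12.9%), 3 higher and 6 lower, against 19.2% of all genes, 9.12% higher and 10.1% lower. By mean intensity over the lines, 1.68% of genes under 100 were called and more among brighter ones, so members were also set beside genes of like brightness. From 300 to 1000, none of 22 members was called, against 12.02% of genes. Between 1000 and 3000 it was 1 of 19 members against 12.2%, and above 3000 it was 1 of 14 against 11.6%.

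**Figure D1:**
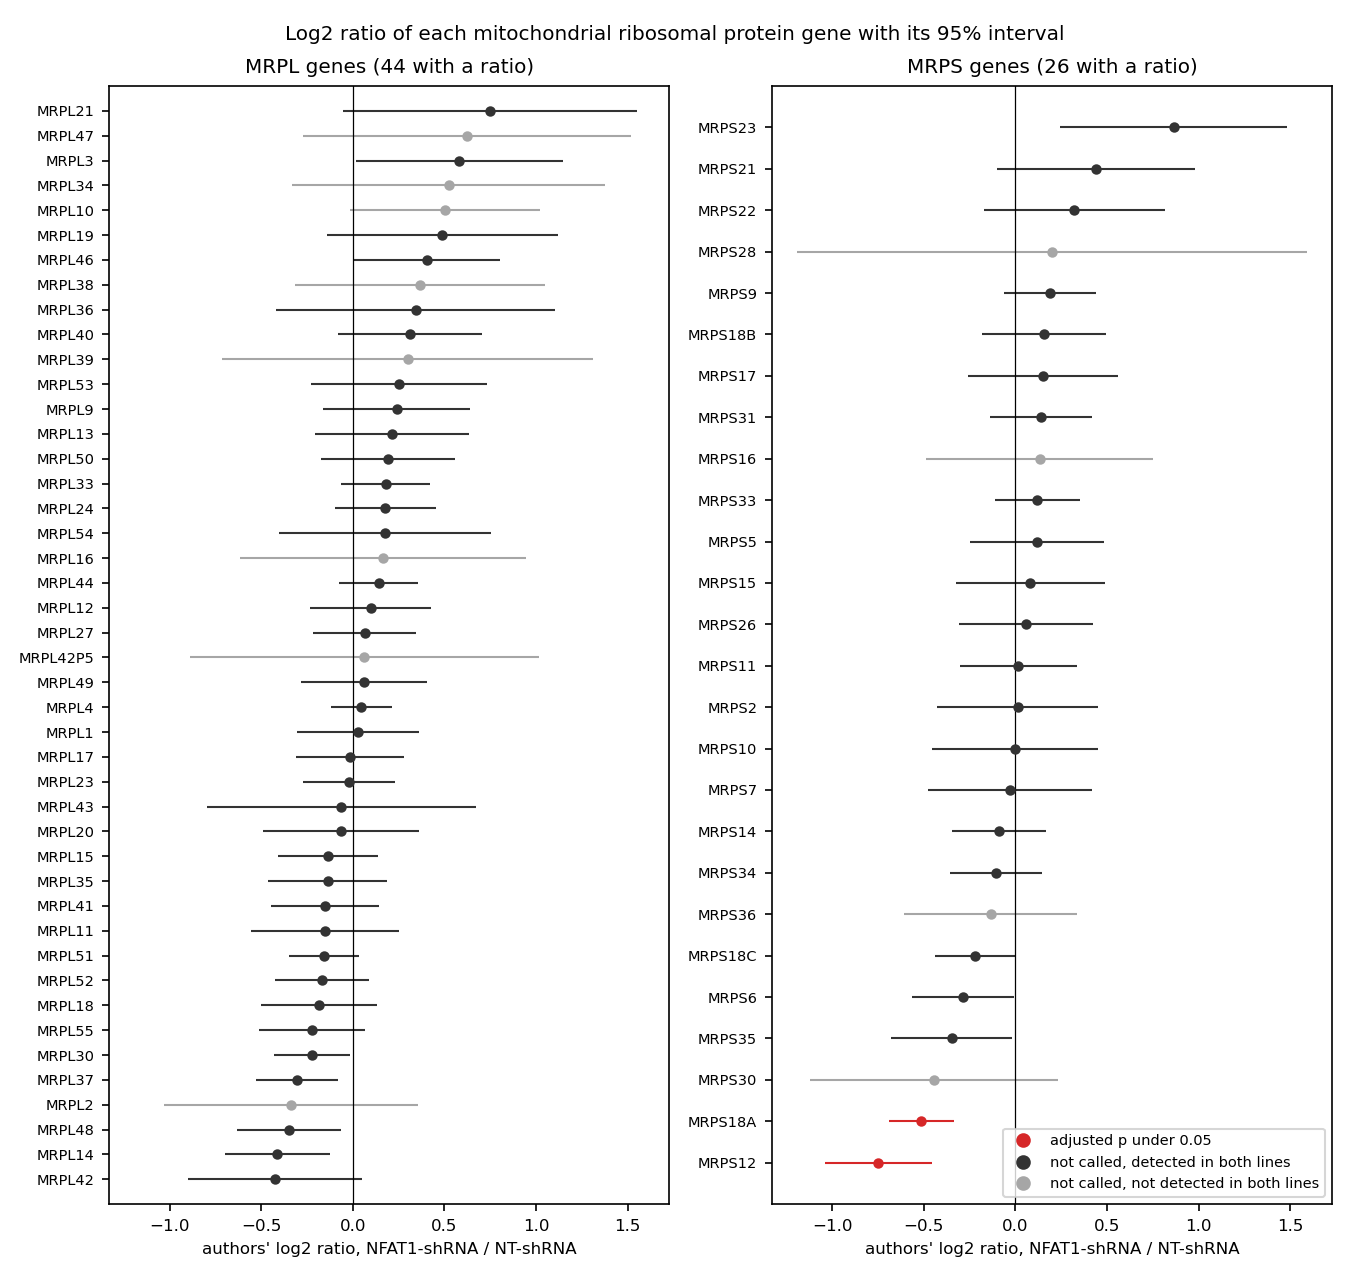
Log2 ratio (NFAT1-shRNA over NT-shRNA, as deposited) for the 44 MRPL and 26 MRPS genes with a ratio, sorted by value, with 95% intervals from the deposited errors as bars. MRPS12 and MRPS18A, in red, are the 2 genes called, and the interval of most other genes crosses 0.

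The ratios of the 70 genes lay close to those of all genes. The authors' deposited table gives them a median log2 ratio of 0.061, against -0.015 for all genes, and their middle 50% ran from -0.15 to 0.20, against -0.23 to 0.21. By sign 41 were positive and 29 negative. The MRPL genes had a median of 0.063 and the MRPS genes of 0.035 in the authors' deposited table. A log2 ratio of at least 0.5 in size was seen for 8 members (11.4%), against 15.2% of all genes, and none reached 2-fold, against 1.63% of all genes. For 59 of the 70 the 95% interval included 0, as it did for 7561 of all 9516 genes with a ratio. Deposited errors had a median of 7.26% (NFAT1-shRNA) and 9.78% (NT-shRNA) of the signal, against 8.49% and 11.4% for all genes with a ratio. In intensity before any centring, 61 members read higher in the NFAT1-shRNA line and 9 read lower. The median gene of the array was 1.23-fold brighter in that line, so the plain quotient of the members, with a median of 0.34 on the log2 scale, stood beside 0.30 for all genes.

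**Figure D2:**
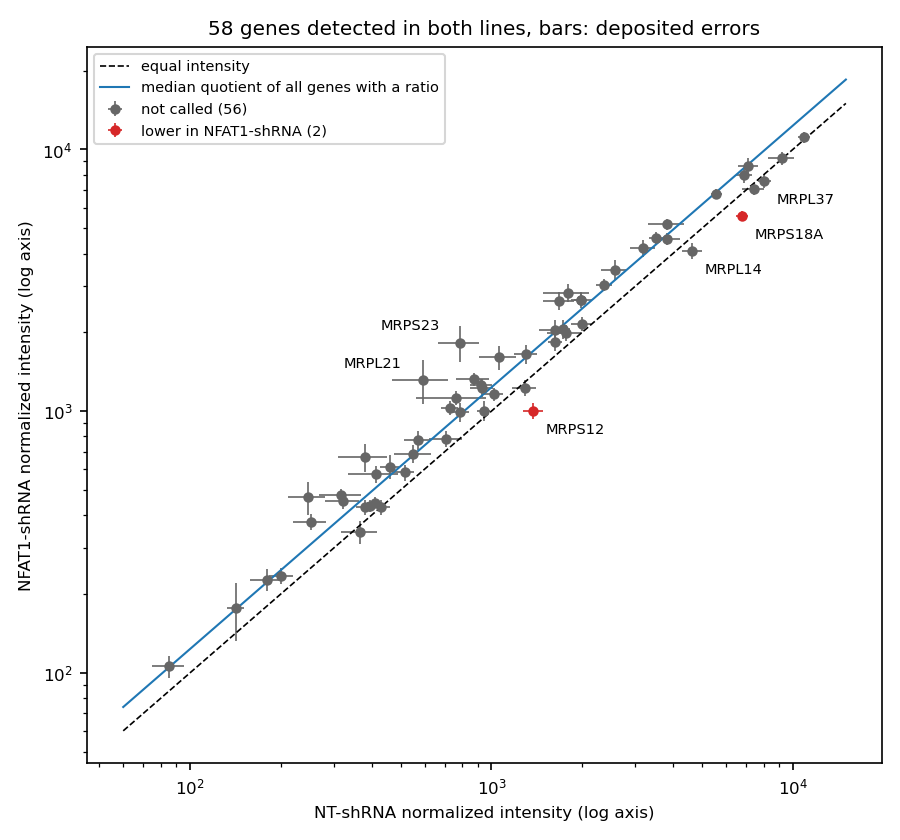
Normalized intensity in the NFAT1-shRNA line against that in the NT-shRNA line, both on log axes, for the 58 members detected in both lines, with the deposited errors as bars. The dashed line marks equal intensity and the blue line the median 1.23-fold quotient of all genes, with MRPS12 and MRPS18A below both.

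MRPS12 is the counterpart of bacterial protein S12 and sits at the decoding centre of the small subunit. It read 1001 (deposited error 68.3) in NFAT1-shRNA cells and 1377 (deposited error 107) in NT-shRNA cells. The plain quotient of these intensities was -0.46 on the log2 scale, where that of the median gene was 0.30. The authors' deposited table lists a log2 ratio of -0.75, which is 1.68-fold higher in the NT-shRNA line (95% interval -1.04 to -0.46, adjusted p 0.000587). The other MRPS12 probe, at 15 and 13.4, was detected in neither line, so the value rests on 1 probe. The start of MRPS12 lies head to head with that of SARS2, the mitochondrial seryl-tRNA synthetase, and their promoter windows on opposite strands share 290 bases. SARS2 read 187 (error 13) against 112 (error 18.6) and stood at 0.41 (log2) in the authors' deposited table, not past the threshold (adjusted p 0.41).

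MRPS18A carries a small-subunit name but is built into the large subunit. It is 1 of 3 paralogues of the bacterial S18 family in mitochondria. It read 5569.7 (deposited error 242) in NFAT1-shRNA cells and 6778 (deposited error 306) in NT-shRNA cells, again lower in the NFAT1-shRNA line before centring. The authors' deposited table lists a log2 ratio of -0.51, 1.43-fold higher in the NT-shRNA line (95% interval -0.69 to -0.34, adjusted p 0.000396). The paralogues MRPS18B and MRPS18C are proteins of the small subunit. MRPS18B read 4192 (error 312) against 3188 (error 298) and had 0.16 in the authors' deposited table, and its dimmer probe gave 0.16. MRPS18C read 434 (error 22.2) against 397 (error 23.5) and had -0.22 in the authors' deposited table. Neither paralogue passed the threshold (adjusted p 0.661 and 0.4), and the difference between paralogues was not tested.

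The small subunit held 15 measured members with a bacterial counterpart, and all had a ratio. MRPS12 fell (6.67%, against 7.55% of all genes called), none rose and 14 did not pass. The median ratio was 0.015 (log2) in the authors' deposited table. By unadjusted p under 0.05 there were 2 (13.3%, against 19.2% of all genes), both lower. MRPS21, the counterpart of bacterial S21, read 2834 (error 228) against 1789.9 (error 309.9) on its brighter probe and had 0.44 in the authors' deposited table. Its other probe read 393 (error 29) against 379.6 (error 37) with -0.30, so its probes pointed in opposite directions. At the other end, MRPS6 read 7085 (error 372) against 7415 (error 622) and the authors' deposited table lists -0.29 (95% interval -0.57 to -0.0062, adjusted p 0.199). MRPS2, MRPS10 and MRPS11 lay at 0.012, -0.0024 and 0.015 in the authors' deposited table, closest to 0 of this group. MRPS28, which occupies the place of bacterial S1, read 519 (error 56.95) in NT-shRNA cells and 709.6 in NFAT1-shRNA cells, where its error of 340.2 was 47.9% of the signal and the probe was not detected. Its other probe was detected in both lines and read 225 (error 36.4) against 110.1 (error 15.8). That probe stood at 0.65 (log2) in the authors' deposited table, with an unadjusted p of 0.0433.

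Of 10 small-subunit members grouped as mitochondrion-specific, 8 had a ratio, and none passed the threshold, against 7.55% of all genes called. MRPS23 alone had an unadjusted p under 0.05 in the authors' deposited table (12.5%, against 19.2% of all genes). It also had the highest ratio of all members. MRPS23 read 1825 (deposited error 281) in NFAT1-shRNA cells and 786 (deposited error 123) in NT-shRNA cells. The authors' deposited table lists a log2 ratio of 0.86, 1.82-fold higher in the NFAT1-shRNA line (95% interval 0.24 to 1.48, adjusted p 0.104). Its errors were wide, at 15.4% and 15.6% of the signal. With the quotient of the intensities centred on the median of all genes in place of the authors' ratio, MRPS23 stood at 0.91 with an adjusted p of 0.0433, so its call turns on the scale. MRPS22 had 0.32, MRPS31 0.14 and MRPS33 0.12 in the authors' deposited table, while MRPS35 had -0.35 (adjusted p 0.285). MRPS25 and MRPS27 had no ratio and were detected in neither line.

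In the large subunit, 30 members have a bacterial counterpart, and 27 of these had a ratio. None passed the threshold, against 7.55% of all genes called. By unadjusted p in the authors' deposited table (under 0.05) there were 2 (7.41%, against 19.2% of all genes), MRPL3 higher and MRPL14 lower. MRPL3, a protein that reaches towards the peptidyl transferase centre, read 469.8 (error 67.6) against 246 (error 34.2). The authors' deposited table lists a log2 ratio of 0.58 (95% interval 0.016 to 1.15). MRPL14 lies at the face that meets the small subunit. Its brighter probe read 4097 (error 279) against 4638 (error 351), with -0.41 in the authors' deposited table (95% interval -0.70 to -0.12, adjusted p 0.135). The dimmer MRPL14 probe went the other way, at 535 (error 53.1) against 348 (error 52.2) with 0.31. MRPL14 also passed the threshold on the median-centred quotient (-0.48, adjusted p 0.0166), and the mean over both probes was -0.052.

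Other members of this group with high ratios had intervals that included 0. MRPL21 read 1315 (error 251) against 591 (error 124), with 0.75 in the authors' deposited table (95% interval -0.053 to 1.55). Its deposited errors were 19.1% and 21% of the signal. MRPL19 read 666 (error 82.9) against 381 (error 70.6) with 0.49 in the authors' deposited table, where its dimmer probe, detected in neither line, had -0.92. The stalk that recruits translation factors is made by MRPL10 and MRPL12. MRPL12 read 1229 (error 98.6) against 931 (error 79.3), and its 2 probes lay at 0.10 and 0.084 (log2) in the authors' deposited table. MRPL10 was detected in the NFAT1-shRNA line only, where it read 99.3 (95% interval of the log2 ratio -0.018 to 1.02). With the median shift between lines removed, that is 1.33-fold above the lowest detected NT-shRNA signal, 60.4. It is no lower limit of the difference, since undetected probes can read above that signal. MRPL16 read 84 (error 5.83) against 63.1 (error 16.8), detected in the first only, with 0.16 in the authors' deposited table (95% interval -0.62 to 0.94). MRPL47 read 241 (error 39.8) against 123 (error 33.3) and was also detected in NFAT1-shRNA cells only. Its bound of 1.58-fold on the median-centred scale exceeds the 1.54-fold that the ratio in the authors' deposited table gives (95% interval of the log2 ratio -0.27 to 1.52), so it was not taken as a size. None of these 3 passed the threshold.

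Proteins that line or surround the exit of the nascent chain include MRPL4, MRPL23 and MRPL24. MRPL23 read 7953 (error 513) against 6903 (error 418) and MRPL24 2668 (error 148) against 1989 (error 159). The authors' deposited table put them at -0.022 and 0.18 on the log2 scale. MRPL4 had 0.046 (95% interval -0.12 to 0.21) in the authors' deposited table, the narrowest interval of any member whose ratio lay within 0.1 of 0. MRPL27, near the peptidyl transferase centre, read 8670.0 (error 566) against 7113 (error 529.8) with 0.064 in the authors' deposited table. MRPL18, another bright member, read 9259 (error 511) against 9176 (error 895) with -0.19. MRPL2, MRPL22, MRPL28, MRPL32 and MRPL34 were detected in neither line, 3 of them without a ratio.

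Of the 19 large-subunit members with no counterpart in the bacterial large subunit, MRPS18A and MRPS30 included, 18 had a ratio. MRPS18A fell (5.56%, against 7.55% of all genes called), none rose and 17 did not pass. The median was -0.0016 (log2) in the authors' deposited table. By unadjusted p under 0.05 there were 4 (22.2%, against 19.2% of all genes), 1 higher (MRPL46) and 3 lower (MRPS18A, MRPL37 and MRPL48). The central protuberance, the knob at the top of the large subunit, holds MRPL38, MRPL40, MRPL46 and MRPL48. MRPL46 read 2640.3 (error 207) against 1679 (error 196), with 0.40 in the authors' deposited table (95% interval 0.0076 to 0.80, adjusted p 0.182). MRPL40 read 1325 (error 75) against 873 (error 111) with 0.31 in the authors' deposited table. MRPL48 read 428 (error 29.2) against 429 (error 31.9), almost equal intensities, which the ratio of the authors' deposited table put at -0.35 (95% interval -0.63 to -0.064). MRPL38 was detected in NFAT1-shRNA cells only, at 146 (error 16.3) against 83.1 (error 17.9), with 0.37 in the authors' deposited table (95% interval -0.32 to 1.05). These proteins of 1 substructure thus had ratios of either sign, and none was called.

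MRPL51 and MRPL37 were the brightest members of this group. MRPL51 read 11120.2 (error 574) against 10885 (error 484) and the authors' deposited table lists -0.16 (95% interval -0.35 to 0.034). MRPL37 read 7595 (error 458) against 8052 (error 406), with -0.31 in the authors' deposited table (95% interval -0.53 to -0.084, adjusted p 0.141). On the median-centred quotient alone its adjusted p passed, at -0.39 (adjusted p 0.0117). MRPL42 had the lowest MRPL ratio, at -0.42 in the authors' deposited table, and read 346 (error 34.1) against 367 (error 50.1), with an adjusted p of 0.333. MRPL44, which has a ribonuclease III fold, read 4591 (error 233) against 3526 (error 199.9) and its 2 probes had 0.14 and 0.14 in the authors' deposited table. MRPL45, which anchors the ribosome at the inner membrane, was below detection in both lines, at 38.2 and 19.6. MRPS30 read 88.9 (error 14) against 99.5 (error 18), was detected in the NT-shRNA line only and had an interval of -1.12 to 0.23. The pseudogene MRPL42P5 was detected in neither line, and MRPS36 read 80.9 (error 11) against 74.2 (error 7.21) with -0.14 in the authors' deposited table.

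None of the remaining members passed the threshold. Among large-subunit proteins with a bacterial counterpart, MRPL13 read 5176 (error 269) against 3834 (error 533) and MRPL1 read 4554 (error 228) against 3814 (error 409). The authors' deposited table put these at 0.21 and 0.026. MRPL11, which sits at the base of the stalk, read 784 (error 52.8) against 709 (error 89.5) with -0.15 in the authors' deposited table. MRPL36 read 1127 (error 68.4) against 762 (error 199.8) with 0.34 in the authors' deposited table (95% interval -0.42 to 1.10), the widest of this group among genes detected in both lines after MRPL21's. MRPL30 had -0.22, MRPL55 -0.22, MRPL35 -0.14, MRPL15 -0.14, MRPL20 -0.064, MRPL17 -0.015 and MRPL9 0.24 in the authors' deposited table. The interval of MRPL30 excluded 0, at -0.43 to -0.016, while the authors' p was 0.106 before adjustment and 0.4 after it. The intervals come from the deposited errors and need not match the authors' p.

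Large-subunit proteins outside the bacterial set likewise had ratios of either sign. MRPL50 read 3474 (error 293) against 2567 (error 251) and MRPL49 1653 (error 143) against 1303 (error 113), with 0.19 and 0.06 in the authors' deposited table. MRPL39, detected in NFAT1-shRNA cells only, read 127 (error 16.2) against 74.3 (error 24.9) with 0.30 in the authors' deposited table (95% interval -0.72 to 1.31). MRPL41 had -0.15, MRPL52 -0.17, MRPL43 -0.063, MRPL53 0.25 and MRPL54 0.17 in the authors' deposited table. In the small subunit, MRPS5 read 774 (error 64.3) against 571 (error 56.8) and MRPS9, a protein of the head, read 1029.5 (error 60.3) against 727 (error 48.8). These lay at 0.12 and 0.19 in the authors' deposited table. MRPS15 read 2051 (error 172) against 1626 (error 191) with 0.082, MRPS14 had -0.091, MRPS17 0.15, MRPS7 -0.03 and MRPS26 0.055 in the authors' deposited table. MRPS16 was detected in neither line. The members with a RefSeq position lie on 21 chromosomes, at most 8 on any of them.

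**Figure D3:**
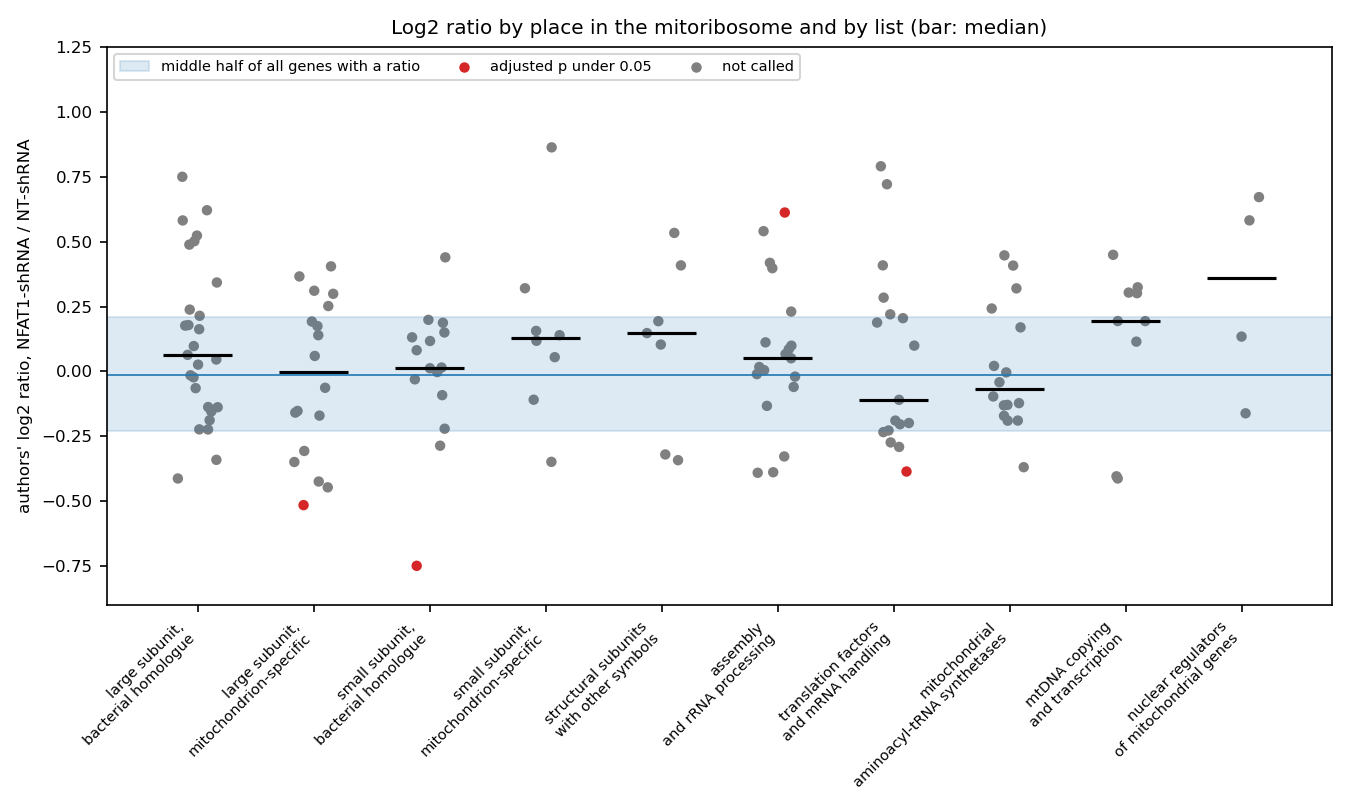
Log2 ratio (NFAT1-shRNA over NT-shRNA, as deposited) for members by subunit and bacterial counterpart, and for 6 lists of other mitochondrial translation and maintenance genes, with the median as a bar. Red points are the 4 genes called, and the blue band is the middle 50% of all genes with a ratio, from -0.23 to 0.21.

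Of the 76 genes, 50 had 1 probe and 26 had 2, so that part of the values could be read on separate probes of the same gene. For 13 genes both probes were detected in both lines, and their ratios had the same sign for 8 and opposite signs for 5. The median gap between the probes was 0.21 on the log2 scale. It was over 0.5 for 3 genes, MRPL14, MRPS21 and MRPS34, each with opposite signs. The MRPS34 probes read 1161 (error 63.1) against 1018 (error 71.6) and 555 (error 41.4) against 315 (error 28.2), and lay at -0.11 and 0.46 (log2) in the authors' deposited table. At the other extreme, the probes of MRPS18B and of MRPL44 differed by under 0.01. MRPL33 had 0.18 and 0.60 in the authors' deposited table. MRPS33 read 3041 (error 162) against 2365 (error 148) on its brighter probe and 205 (error 13.9) against 119 (error 12.1) on its dimmer one, with 0.12 and 0.44 in the authors' deposited table. The dimmer MRPS33 probe, detected in both lines, was higher in NFAT1-shRNA cells with a Benjamini-Hochberg adjusted p of 0.0444 over all probes, while the brighter probe, which represents the gene in the counts, did not pass.

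**Figure D4:**
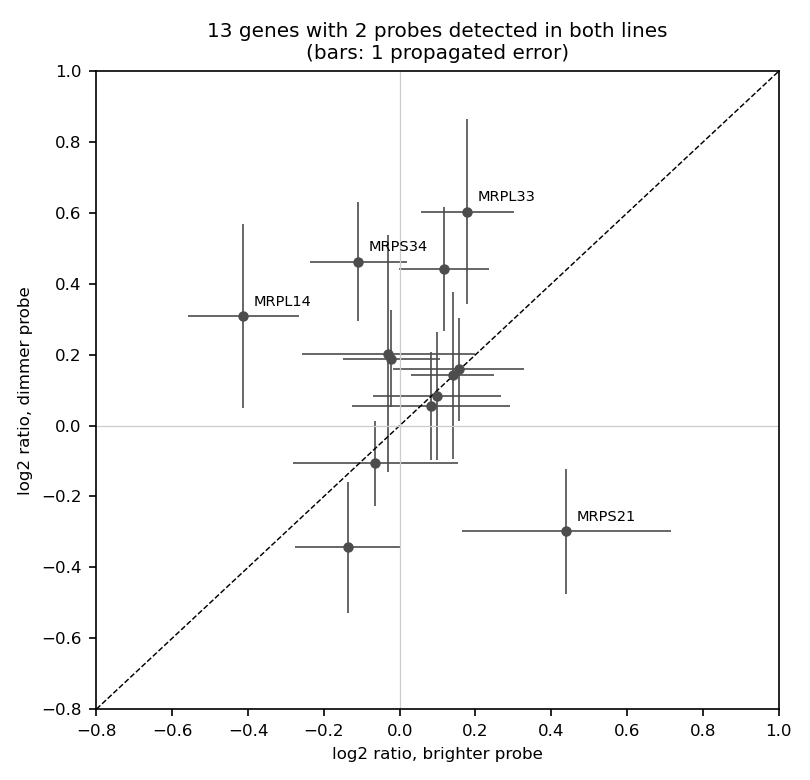
Log2 ratio, as deposited, of the dimmer probe against that of the brighter probe for the 13 genes with 2 probes detected in both lines, with 1 propagated error as bars and the dashed line for equal ratios. MRPL14, MRPS34 and MRPS21 lie away from the line in quadrants of opposite sign.

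A subunit list with symbols outside MRPL and MRPS held 7 genes, all with a ratio. None passed the threshold, against 7.55% of all genes called, and 1 was under 0.05 unadjusted (14.3%, against 19.2% of all genes). For this list the authors' deposited table gives a median of 0.15 (log2). DAP3, a GTP-binding protein of the small subunit, had 0.53 (95% interval -0.062 to 1.13), and GADD45GIP1 of the large subunit -0.34 (95% interval -0.62 to -0.067), in the authors' deposited table. ICT1, a peptidyl-tRNA hydrolase built into the large subunit, read 14304 (error 651) against 11123 (error 723) with 0.19 in the authors' deposited table.

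Among genes of mitoribosome assembly and rRNA processing, 19 of 23 measured had a ratio. Of these, 1 rose (5.26%, against 7.55% of all genes called), none fell and 18 did not pass, with a median of 0.051 in the authors' deposited table. The gene that rose was MTERFD1 (now MTERF3), which acts on mitochondrial transcription and ribosome assembly. It read 2315 (deposited error 145) in NFAT1-shRNA cells and 1262 (deposited error 147) in NT-shRNA cells. The authors' deposited table lists a log2 ratio of 0.61 (95% interval 0.24 to 0.99, adjusted p 0.0129). By unadjusted p in the authors' deposited table (under 0.05) there were 4 higher and 2 lower in this list (31.6%, against 19.2% of all genes). Chosen after their values were seen, TFB1M, which methylates the small-subunit rRNA, read 9681 (error 753) against 6296 (error 539) with 0.40, and MALSU1, which docks on MRPL14, had 0.051 in the authors' deposited table.

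All 17 measured translation factors and mRNA-handling genes had a ratio. One fell (5.88%, against 7.55% of all genes called), none rose and 16 did not pass, with a median of -0.11 in the authors' deposited table. Unadjusted, 3 were higher and 2 lower (29.4%, against 19.2% of all genes). The gene that fell was GUF1, a relative of the bacterial elongation factor LepA. It read 729 (error 49.6) against 764 (error 64.5), with -0.39 in the authors' deposited table (adjusted p 0.0489), and it was not past the threshold under 5 of the alternatives. SLIRP, a partner of LRPPRC in protecting mitochondrial mRNA and named after its values were seen, read 2399.9 (error 186) against 1242 (error 359) with 0.79 in the authors' deposited table (95% interval -0.056 to 1.64).

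None of 16 mitochondrial aminoacyl-tRNA synthetase genes with a ratio passed, against 7.55% of all genes called. At an unadjusted p under 0.05 there was 1 (6.25%, against 19.2% of all genes), and the median was -0.069 in the authors' deposited table. IARS2, which charges isoleucine, came closest, at 0.45 in the authors' deposited table (adjusted p 0.0643). None of 9 genes of mitochondrial DNA copying and transcription passed, against the same 7.55%. At an unadjusted p under 0.05 there were 2 (22.2%, against 19.2% of all genes), and the median was 0.19. TFAM, the DNA-packaging transcription factor, read 111 (error 7.94) against 66.2 (error 7.53) with 0.45 in the authors' deposited table (adjusted p 0.216). Of 9 nuclear regulators, 4 had a ratio and none passed (0 at an unadjusted p under 0.05, median 0.36). The shares of all genes beside these counts were again 7.55% and 19.2%. NRF1, PPARGC1A, PPARGC1B, PPRC1 and MYC were detected in neither line. GABPB1, the partner subunit of GABPA, read 268 (error 18) against 136 (error 34.4) with 0.67 in the authors' deposited table, and GABPA itself had -0.16 (adjusted p 0.352 and 0.741).

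The calls were compared under other scales of the ratio and other rules for a call. The plain and the median-centred quotient differ by the same amount for every member. The other scales moved members by unlike amounts. MRPS12 and MRPS18A were called lower under all 8 alternatives run, at -0.76 to -0.46 and -0.59 to -0.28 on the log2 scale. Only the scales computed from the intensities gave these genes a new ratio and p. The other alternatives kept the authors' ratio and p for both, and an unadjusted p could not undo a call. Without centring, 14 members were called higher and the same number lower as in the authors' ratio, 2, where 2278 of all genes were called. The median of the members relative to all genes stayed between 0.036 and 0.10 under the alternatives run.

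**Figure D5:**
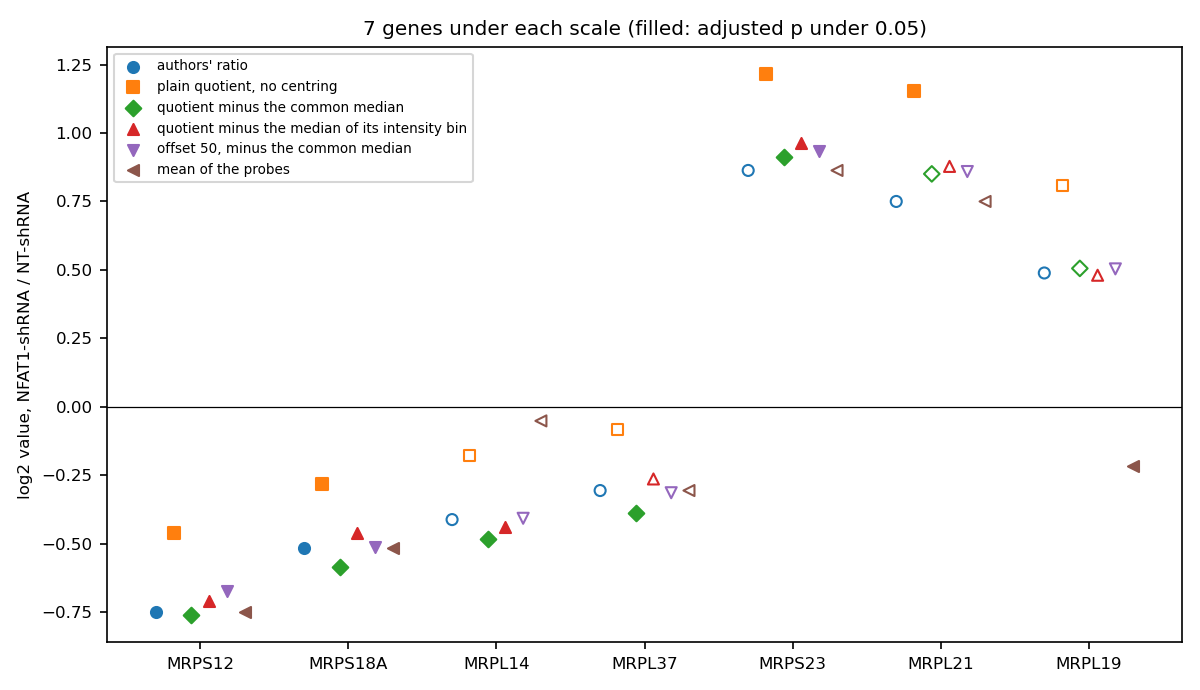
Log2 value of NFAT1-shRNA over NT-shRNA for 7 members under the authors' ratio, 4 scales computed from the intensities and the mean of a gene's probes, with filled symbols where the adjusted p is under 0.05. MRPS12 and MRPS18A are filled under all 6, although the mean of the probes repeats the authors' ratio for both. MRPS23 is filled under 4, and MRPL19 changes sign with the mean of its probes.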

How the data were processed

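The deposited table gives, per the file headers, 1 normalized intensity, 1 error in the same unit and 1 detection p-value for each probe and line, made by the authors by steps not given in the sources used here. It also gives the authors' log2 ratio and the authors' p-value for it. Per the labels, aminoallyl RNA was coupled to Cy5, whereas the extract protocol describes Illumina labelling, so no array maker is named. The intensities are linear. The deposited ratio has a median of -0.015 over all genes and is not the plain quotient less a constant. It lies below that quotient by unlike amounts, with a difference of -0.19 for MRPL51 and -0.40 for MRPL21. The step that gave it is not described. A second table of the same intensities differed by at most 5e-07.

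With 1 combined value per line, no test across arrays was possible. The authors' p-values were adjusted by Benjamini-Hochberg over 9516 genes, each by its brightest probe. Errors were propagated to the log2 scale and taken as normal standard errors for intervals and for the scales computed here. Python 3.11.15, pandas 2.3.3, numpy 2.4.6, scipy 1.17.1 and matplotlib 3.10.9 were used.

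Entrez numbers of all 76 members matched RefSeq (GRCh38.p14), with 1 symbol changed. Bounds compare the brighter line with the dimmer line's value or its lowest detected signal, whichever is higher. That signal was 78.3 in the NFAT1-shRNA line or 60.4 in the NT-shRNA line. Undetected probes can read above it, so the bounds are not strict limits. Genes named are those called, the 6 highest and 6 lowest ratios among members detected in both lines, the 4 brightest members, the 2 nearest the threshold, genes whose probes disagree, and per list those called or the largest ratio. Other members are given for their role, chosen with values in view. Members and lists were chosen with earlier results of these data known.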

Additional observations from a re-analysis of the deposited data

How the results depend on the processing

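The 8 alternatives replaced the authors' ratio by the plain quotient, by that quotient centred on the common median or on the median of 1 of 20 intensity bins, or by an offset of 50, took the mean of the probes, kept genes detected in both lines, adjusted over all probes, or used the unadjusted p. Members called higher, 0 with the authors' ratio, were 14 with the plain quotient, 1 with each of the 3 other scales (MRPS23) and 3 at an unadjusted p. Members called lower, 2 with the authors' ratio, were 4 with the common median, 3 with the bin median (MRPL14 added at -0.44, adjusted p 0.0361), 3 with the mean of the probes (MRPL19 added) and 6 at an unadjusted p. All genes called were 2278 with the plain quotient and 1828 at an unadjusted p, against 718. Of the 70 members with a ratio, 29 were negative by the authors' ratio and 9 by the plain quotient. Signs were compared gene by gene only for the 24 genes picked by the naming rule, NFATC2 included. Among these, signs changed for MRPL18 (0.013), MRPL51 (0.031) and MRPS34 (0.19) with the plain quotient and for MRPL27 (-0.017) with the common median. They also changed for MRPL19 (-0.22), MRPS34 (0.18) and NFATC2 (-0.055) with the mean of the probes. MRPL19 was then called, through its dimmer probe. The cause of these changes was not tested beyond the construction of each scale. Leaving out the pseudogene or adding 7 other subunits left 0 higher and 2 lower. This could not have come out otherwise, since the adjustment ran over all genes and none of these genes was called. No replicate could be left out, since each line has 1 combined value. No paired analysis was possible because the labels give 1 sample per line. Weak signal or a wide error limits the 10 members detected in neither line and the 8 detected in 1. MRPS28, undetected in the NFAT1-shRNA line at 709.6, had an error of 47.9% of the signal there.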

Other observations

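MRPS24 stood on a probe shared with the read-through gene URGCP-MRPS24 and so is not among the members. That probe read 14153 (error 973) against 12856 (error 833), and the authors' deposited table lists -0.024 on the log2 scale. The dimmer MRPL19 probe had the third-lowest p of the member probes, 0.000254 in the authors' deposited table, although it was detected in neither line. It read 52.8 (error 8.44) against 72.1 (error 17.9), which is -0.45 as a plain quotient on the log2 scale beside the -0.92 of the authors' ratio.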
